A study of Mus musculus with 7 samples.

Results

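The lysosome genes described here are 40 genes chosen by symbol from the deposited expression table of adult hippocampal neural stem cell (NSC) cultures, and all 40 were found among its 24346 genes. They fall into 11 proteases, 8 glycosidases, 7 lipid hydrolases and lipid carriers, 6 membrane proteins, 5 subunits of the proton pump and 3 regulators. Expression was measured by RNA sequencing of primary neurospheres, the floating clusters that NSCs form in culture, with 1 library for each mouse. There were 4 control libraries (WT_215, WT_116, WT_213, WT_220) and 3 Med23 CKO libraries (KO_117, KO_214, KO_218). Med23 CKO mice were Nestin-CreER:Med23 flox/flox, in which the Nestin promoter drives a Cre recombinase that tamoxifen activates, so that recombination is limited to cells in which this promoter was active, such as NSCs and their progenitors. The paper states that endothelial cells express Cre from this promoter too. The table holds more control libraries than the study describes, and its text does not say which it used, so all were kept here. The controls, labelled wild type, were littermates that the methods give as Med23 flox/+ or Med23 flox/flox. All mice were C57/BL6 and aged 2 months by the labels. Both groups received tamoxifen by gavage at 200 mg/kg a day for 5 days. Med23 is a subunit of Mediator, the complex that links transcription factors to RNA polymerase II, and the comparison asks which lysosome genes differed when the gene was deleted.

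Lysosomes are the acidic compartments in which cells break down proteins, glycans and lipids delivered by endocytosis and autophagy. A proton pump in their membrane keeps the lumen acidic, hydrolases in the lumen do the digestion, and the transcription factors TFEB and TFE3 act on many of these genes together. In the hippocampus, lysosomes are present in every cell type and are prominent in phagocytic cells such as microglia, while in NSCs they are known to take part in the passage between quiescence and division.

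Levels were given as FPKM, fragments scaled by transcript length and by the fragments mapped in the library, so that genes can be compared per length. Differences are Med23 CKO minus control means of log2(FPKM + 1), a scale that understates the change of genes with low values, and are called log2 fold changes, each with its standard error (SE). All 40 lysosome genes were among the 14151 genes with a mean of at least 0.5 FPKM over the 7 libraries, on which limma's moderated test was run. The test sets the difference between groups against the spread between libraries of a group, each library being 1 mouse. In that spread, differences of mouse, culture and library preparation cannot be told apart. Between 16841 and 18113 genes had a value above 0 in a library, and correlations between libraries ran from 0.788 to 0.979 on the log2 scale. Read depth is unknown, because the table holds no counts. The targeted gene, Med23, lay between 10.1 and 12.9 FPKM in control and between 8.12 and 9.97 FPKM in Med23 CKO. These groups did not overlap, as was the case for 1.53% of all genes in this direction. The difference of -0.26 on the log2 scale (SE 0.18) did not pass limma's test (unadjusted p = 0.175, adjusted p = 0.9999). An exact permutation test gave p = 0.0571. A lower Med23 mRNA level in these libraries was thus not established by either test. Among defining NSC markers, Nes, Sox2 and Sox9 were present in every library, with Sox2 from 69.4 FPKM in KO_218 to 194 FPKM in KO_117.

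No lysosome gene passed limma's test of Med23 CKO against control. At an unadjusted p under 0.05, 0 of the 40 were higher, against 0.502% of all genes tested, and 0 were lower, against 0.996%. At an adjusted p under 0.05 there were 0 of 40, against 0% of all genes. For 0 of the 40 did all 3 Med23 CKO values lie above all 4 control values (0.784% of all genes) or below them (1.53% of all genes). The lowest unadjusted p among them was 0.186 (limma), for the acid ceramidase gene Asah1, with a log2 fold change of 0.35 (SE 0.24). The log2 fold change was above 0 for 36 of the 40 and below 0 for Ctsf, Gaa, Npc1 and Atp6v0d1. The median was 0.25, beside -0.03 over all genes tested, of which 6196 were above 0. For 35 of the 40, however, the range of the 4 controls on the log2 scale was larger than the fold change, as it was for 13527 of the 14151 genes.

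The highest and the lowest libraries were shared by most of the 40 genes, and the lowest were found in both groups. Med23 CKO mouse KO_214 had the highest value of the 7 libraries for 39 of the 40 genes, where it held the highest value of 25.4% of all genes tested. The exception was Atp6v1h, highest in WT_116. Control WT_220 held the lowest value of 17 genes and Med23 CKO mouse KO_117 that of 16, together 82.5% of the lysosome genes beside 42.1% of all genes. The mean log2(FPKM + 1) of the 40 genes was 5.54, 6.10, 5.90 and 5.11 for WT_215, WT_116, WT_213 and WT_220 in turn, whereas it was 5.11 for KO_117, 6.92 for KO_214 and 5.81 for KO_218. The 40 genes together held 0.715%, 1.17%, 1.02% and 0.465% of the summed FPKM of the controls and 0.460%, 2.20% and 1.03% of that of the Med23 CKO libraries, in the same order. KO_117 therefore lay with the lowest control, KO_218 within the control range and KO_214 above every control.

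**Figure D1:**
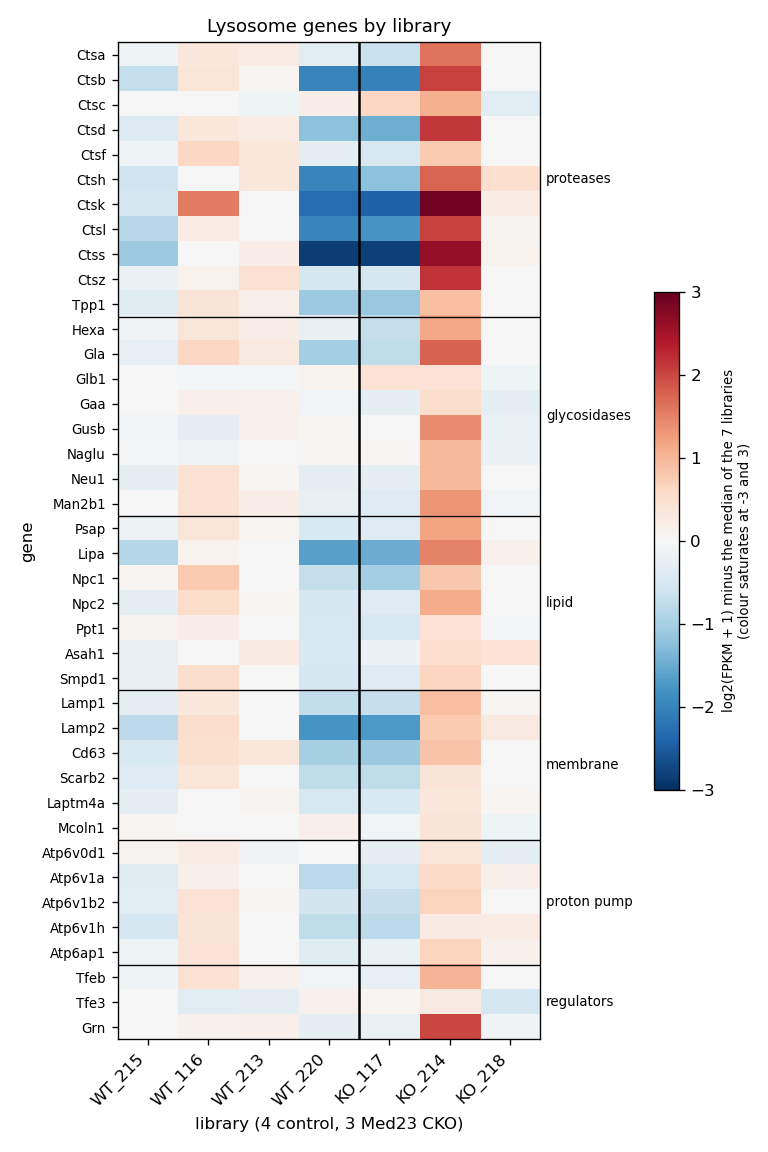
Level of the 40 lysosome genes (rows, by role) in the 4 control and 3 Med23 CKO libraries (columns), as log2(FPKM + 1) minus the median of the 7 libraries, with red above and blue below that median. KO_214 is the highest library for 39 genes, and WT_220 or KO_117 the lowest for 33, so the darkest columns fall in both groups.

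The same spread was present inside each group. The libraries with the highest and the lowest mean of the 40 genes in each group were set side by side, so the direction followed from this choice. WT_116 was above WT_220 for 34 of the 40 genes, with a median difference of 0.87 on the log2 scale. Over all genes tested it was above for 51.5%, with a median of 0.03 and a median absolute difference of 0.55. KO_214 was above KO_117 for 40 of the 40, with a median difference of 1.47, beside 51.4% and 0.03 over all genes tested. The median absolute difference of this pair over all genes was 0.63. KO_218 lay within the range of the 4 controls for 29 of the 40 genes, beside 7895 of the 14151 genes tested. KO_117 lay below all controls for 18 of the 40, beside 3396 of the 14151. The median ratio of KO_214 to the control mean was 2.07, and it was 4.53 for the proteases, 2.12 for the glycosidases, 2.08 for the regulators, 1.65 for the membrane proteins, 1.62 for the lipid enzymes and carriers and 1.59 for the proton pump. By this ratio the proteases were the most unequal role and the proton pump the least. Without KO_214, the highest library was WT_116 for 26 of the 40 genes, beside 24.0% of all genes.

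The sign of the difference depended on which Med23 CKO libraries were used. Without KO_214 the median log2 fold change of the 40 genes was -0.18, 35 were below 0, and 31 changed sign. Over all 14151 genes tested the median was then -0.06, with 5598 above 0. In that comparison 3 genes, Gaa, Mcoln1 and Atp6v0d1, lay below all controls (5.61% of all genes did), and 0 fell under an unadjusted p of 0.05 in limma's test. Without KO_117 the median was 0.54, and 39 were above 0, beside a median of -0.04 over all genes, of which 6561 were above 0. Then Ctsh, Lipa and Asah1 had an unadjusted p under 0.05 (2.5% of all genes were higher at that level), and these 3 with Atp6v1a lay above all controls (5.1% of all genes). Without KO_218 the median was 0.30, Ctsc (log2 fold change 0.83) and Glb1 (0.43) had an unadjusted p under 0.05 (0.982% of all genes were higher), and they and Naglu lay above all controls (3.82% of all genes). Among the controls, WT_220 moved the median most: without it the median was 0.11, with 26 genes above and 14 below 0, and without another control it lay between 0.20 and 0.37. The 5 genes that stayed above 0 without KO_214 were Ctsc, Ctsh, Glb1, Asah1 and Atp6v1a.

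**Figure D2:**
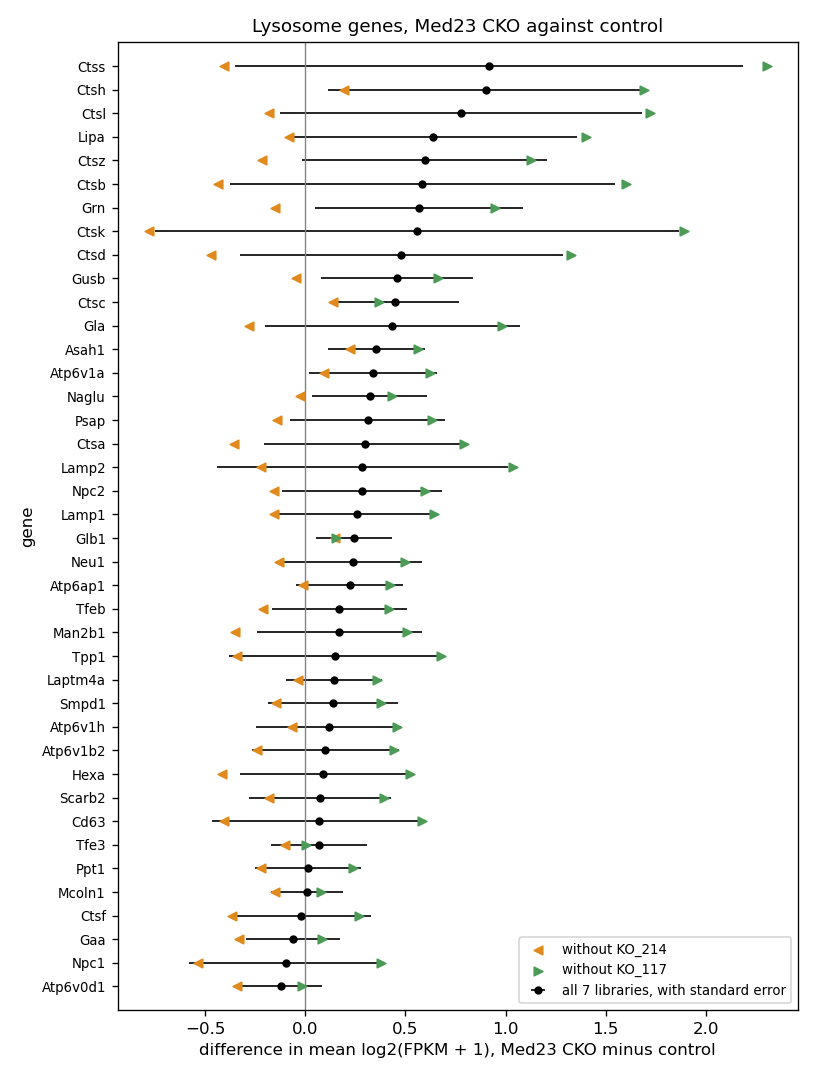
Difference in mean log2(FPKM + 1), Med23 CKO minus control (horizontal axis), for each of the 40 lysosome genes (vertical axis), with black points and SE bars for all 7 libraries and triangles for the fits without KO_214 and without KO_117. Removal of KO_214 leaves 35 genes below 0, and removal of KO_117 leaves 39 above 0.

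The mouse numbers begin with 1 for WT_116 and KO_117 and with 2 for the other 5 mice, and the labels do not say what the digit stands for. The mice numbered from 2, 3 control and 2 Med23 CKO, leave out the control with the highest mean of the 40 genes, WT_116 (6.10). They also leave out the Med23 CKO library with the lowest, KO_117 (5.11). A higher mean difference over the 40 genes was thus fixed by which libraries were left out. In the mice numbered from 2, the median log2 fold change of the 40 genes was 0.64. In these mice 9 genes (Ctsb, Ctsh, Ctsk, Ctsl, Ctss, Lipa, Lamp2, Atp6v1a and Atp6v1h) fell under an unadjusted p of 0.05 in limma's test, where 3.14% of all genes were higher, with adjusted p = 0.370 for each. The groups did not overlap for 11 genes, all higher in Med23 CKO. Of all genes tested, 11.7% lay above all controls in the mice numbered from 2 and 23.9% below them. At an unadjusted p under 0.05 in limma's test, 9.71% of all genes were lower. In the mice numbered from 1, with 1 library in each group and no test, KO_117 was above WT_116 for 5 of the 40 genes. The median difference was -0.93 on the log2 scale. Over all genes tested KO_117 was above for 50.2%, with a median of 0.004. With 1 mouse in each group, these values describe KO_117 and WT_116 and give no direction for the mice numbered from 1.

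The regulators had the lowest median level by role, 15.1 FPKM over all libraries. Tfeb and Tfe3 encode related transcription factors that move to the nucleus when nutrients are short, so that their mRNA level does not show their activity. Tfeb had 3.49, 5.77, 4.34 and 3.62 FPKM in the controls (listed, here and for each gene, as WT_215, WT_116, WT_213, WT_220) and 3.17, 8.98 and 3.91 FPKM in Med23 CKO (as KO_117, KO_214, KO_218). Its log2 fold change was 0.17 (SE 0.34), and only KO_214 lay above the controls. Tfe3 had 15.9, 12.5, 12.9 and 17.4 FPKM in the controls against 16.7, 19.5 and 10.9 FPKM in the Med23 CKO mice, for a log2 fold change of 0.07 (SE 0.24). For Tfe3, WT_220 was the highest control and KO_218 the lowest library. Grn encodes progranulin, a secreted protein that is delivered to lysosomes and cut there into granulins. It had 41.0, 44.9, 45.8 and 33.2 FPKM in the controls against 35.6, 167 and 37.9 FPKM in the Med23 CKO mice. The controls thus lay within 1.38-fold of each other, and KO_117 and KO_218 within their range, while KO_214 was 3.65-fold above the next library. The log2 fold change of Grn was 0.57 (SE 0.52, exact permutation p = 0.571) and was -0.15 without KO_214.

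TFEB and TFE3 are known to bind sites built around the letters CACGTG, so the promoters of the lysosome genes were searched for these letters and for the longer TCACGTG, which contains them, on both strands. RefSeq promoter windows of GRCm38.p6, from 250 bases before to 50 after the start, were found for 34 of the 40 genes. CACGTG was in the windows of 12 of the 34 genes (35.3%), beside 8.09% of the 27025 genes of the reference, and TCACGTG in 10 of the 34 (29.4%), beside 4.29%. The 100 bases just upstream of 7 genes are shown 5′ to 3′ on the strand of the gene, with CACGTG in capitals. Ctsd, Lamp1, Mcoln1 and Naglu stand for windows with the letters, and Ctss, Ctsk and Grn for windows without them among the genes far above the controls in KO_214. The 7 were chosen with their values known.
Ctsd (chr7:142387828-142387927, minus strand): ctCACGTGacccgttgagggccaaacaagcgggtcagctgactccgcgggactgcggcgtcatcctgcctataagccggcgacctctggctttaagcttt
Lamp1 (chr8:13159061-13159160, plus strand): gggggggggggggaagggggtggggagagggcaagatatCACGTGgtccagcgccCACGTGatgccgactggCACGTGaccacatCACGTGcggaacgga
Mcoln1 (chr8:3500419-3500518, plus strand): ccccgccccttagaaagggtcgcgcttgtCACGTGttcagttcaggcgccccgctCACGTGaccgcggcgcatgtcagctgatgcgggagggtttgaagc
Naglu (chr11:101069994-101070093, plus strand): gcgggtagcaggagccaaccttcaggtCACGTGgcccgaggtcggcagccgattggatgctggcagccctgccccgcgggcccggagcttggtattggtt
Ctss (chr3:95526686-95526785, plus strand): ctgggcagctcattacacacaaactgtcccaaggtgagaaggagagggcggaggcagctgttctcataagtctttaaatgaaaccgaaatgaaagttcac
Ctsk (chr3:95499110-95499209, plus strand): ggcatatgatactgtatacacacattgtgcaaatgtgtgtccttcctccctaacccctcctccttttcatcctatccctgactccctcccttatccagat
Grn (chr11:102430407-102430506, plus strand): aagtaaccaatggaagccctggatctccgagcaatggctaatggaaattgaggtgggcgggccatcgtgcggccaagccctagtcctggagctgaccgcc

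Lamp1 held the letters 4 times in this stretch and Mcoln1 2 times. The 12 genes with CACGTG had a median log2 fold change of 0.28 and a median ratio of KO_214 to the control mean of 1.89, with a range from 1.25 to 5.596. For the 22 genes without it the medians were 0.23 and 2.11, with a range of the ratio from 1.33 to 9.22. The ranges overlapped, and a match of letters is a description of the window and not evidence of binding. Mcoln1, the lysosomal calcium channel with 2 such matches, had 23.7, 22.3, 22.6 and 25.2 FPKM in the controls against 21.3, 29.7 and 20.6 FPKM in the Med23 CKO mice, which was the narrowest spread of the 40 genes at 1.44-fold from lowest to highest.

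The proteases held the highest single value of the 40 genes and the most unequal values. Ctsd encodes cathepsin D, the main aspartic protease of lysosomes, and lies on chromosome 7 of GRCm38 from 142375910 to 142387827. It had 508, 857, 784 and 284 FPKM in the controls against 241, 2920 and 671 FPKM in the Med23 CKO mice, with a mean above that of 99.5% of the genes tested. Its level was 608 ± 263 FPKM (SD, n = 4) over the controls and 1277 ± 1439 FPKM (SD, n = 3) over the Med23 CKO mice, with a log2 fold change of 0.48 (SE 0.81, exact permutation p = 0.714). The SD in Med23 CKO was thus larger than its mean. The cysteine protease gene Ctsb (chromosome 14, 63122462 to 63145923) had 162, 342, 278 and 66.0 FPKM in the controls against 64.9, 1109 and 268 FPKM in the Med23 CKO mice, for a log2 fold change of 0.58 (SE 0.96). Ctsl, for cathepsin L (chromosome 13, 64361890 to 64370772), had 123, 255, 220 and 54.5 FPKM in the controls against 64.2, 911 and 233 FPKM in the Med23 CKO mice, for a log2 fold change of 0.78 (SE 0.90). In each of these 3 genes KO_214 was more than 3-fold above the next library, KO_218 lay among the controls, and WT_220 and KO_117 were lowest. Of the annotated exon bases of Ctsd, Ctsb and Ctsl, 34.4%, 12.8% and 26.8% also belong to another gene, from whose reads theirs cannot be told apart.

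Ctss and Ctsk, neighbouring genes on chromosome 3, were the most unequal of the 40. Cathepsin S cuts proteins for antigen presentation and in brain is known from microglia, and cathepsin K is best known from bone-resorbing osteoclasts. Ctss (95526786 to 95556405) had 27.4, 59.7, 68.3 and 7.60 FPKM in the controls against 7.76, 375 and 64.8 FPKM in the Med23 CKO mice, for a log2 fold change of 0.92 (SE 1.27, exact permutation p = 0.571). Ctsk (95499210 to 95509387) had 6.82, 30.8, 10.045 and 1.28 FPKM in the controls against 1.07, 82.9 and 11.9 FPKM in the Med23 CKO mice, for a log2 fold change of 0.56 (SE 1.31, exact permutation p = 0.743). From the lowest to the highest library the values differed by 49.4-fold for Ctss and 77.7-fold for Ctsk, beside a median of 3.12-fold for the 40 genes and 2.35-fold for all genes tested. Already among the controls, Ctsk spread 24.1-fold and Ctss 8.98-fold. Without KO_214 the log2 fold changes were -0.41 for Ctss and -0.78 for Ctsk, and without KO_117 they were 2.31 and 1.89.

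Ctsz, for the carboxypeptidase cathepsin Z, had 107, 130, 165 and 83.6 FPKM in the controls against 84.9, 550 and 121 FPKM in the Med23 CKO mice, for a log2 fold change of 0.60 (SE 0.61). Its controls spread 1.97-fold, less than those of the other unequal proteases, and KO_214 was 3.34-fold above the next library. Ctsf, for cathepsin F, had 21.4, 36.6, 29.7 and 19.1 FPKM in the controls against 16.7, 41.4 and 23.6 FPKM in the Med23 CKO mice, and was the 1 protease below 0, with a log2 fold change of -0.02 (SE 0.35). The remaining 4 proteases, Ctsa, Ctsc, Ctsh and Tpp1, had control means from 11.025 to 43.7 FPKM and log2 fold changes from 0.15 to 0.90. Ctsh, an aminopeptidase, had the largest of these 4 values, with a SE of 0.79. Ctsc, the peptidase that activates serine proteases of immune granules, was not lowest in WT_220 or KO_117: KO_117 had 17.2 FPKM and KO_218 8.55 FPKM, beside 9.85 to 12.7 FPKM in control. Over all 11 proteases the median log2 fold change was 0.56.

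**Figure D3:**
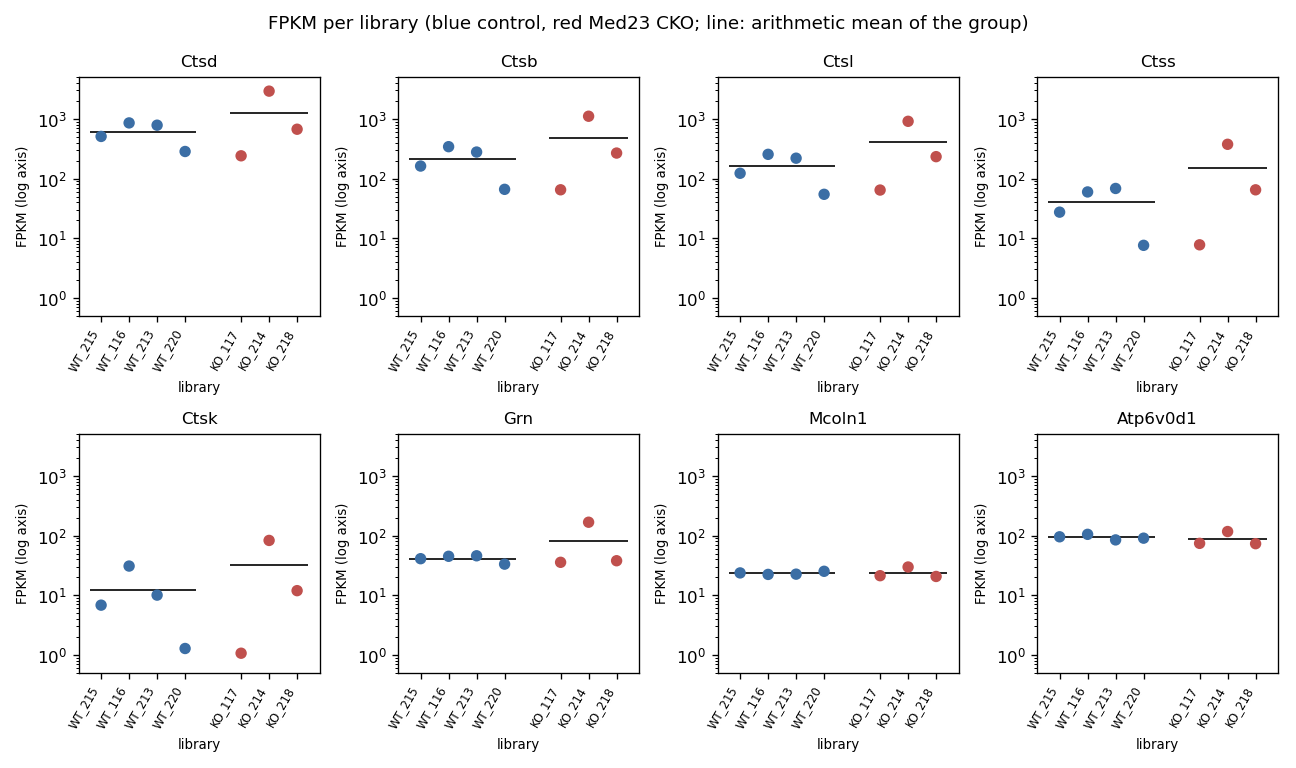
FPKM on a log axis in each library for 8 of the lysosome genes, with blue points for control and red for Med23 CKO, and lines at the arithmetic mean of each group. Ctsd, Ctsb, Ctsl, Ctss and Ctsk are all highest in KO_214 and have their lowest values in WT_220 and KO_117, Grn stands out in KO_214 alone, and Mcoln1 and Atp6v0d1 stay within 1.44-fold and 1.60-fold over the 7 libraries.

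The glycosidases, which remove sugars from glycoproteins and glycolipids, had lower and more even levels, with a median log2 fold change of 0.24. Hexa encodes the alpha subunit of beta-hexosaminidase, which degrades the ganglioside GM2. It had 67.0, 93.5, 84.2 and 62.2 FPKM in the controls against 43.8, 164 and 72.7 FPKM in the Med23 CKO mice, for a log2 fold change of 0.09 (SE 0.42). Gusb, for beta-glucuronidase, had 25.8, 22.5, 29.9 and 27.8 FPKM in the controls against 27.3, 74.5 and 23.7 FPKM in the Med23 CKO mice, for a log2 fold change of 0.46 (SE 0.38) that was -0.05 without KO_214. As for Grn, 6 libraries lay close together and KO_214 stood 2.49-fold above the next. Gaa, the acid alpha-glucosidase that digests glycogen, had 50.03, 55.7, 55.1 and 46.8 FPKM in the controls against 40.5, 72.8 and 41.3 FPKM in the Med23 CKO mice, for a log2 fold change of -0.06 (SE 0.23). For Gaa, 2 of the Med23 CKO libraries were thus below and 1 above every control. The other 5, Gla, Glb1, Naglu, Neu1 and Man2b1, had control means from 8.86 to 25.0 FPKM and log2 fold changes from 0.17 to 0.43. Glb1, the beta-galactosidase, had the most even controls of the 40 genes, within 1.124-fold of each other. Its values were 33.8 FPKM in KO_117 and 34.1 FPKM in KO_214, both above the controls, but 22.7 FPKM in KO_218, below them.

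Among the lipid hydrolases and lipid carriers the median log2 fold change was 0.28. Psap encodes prosaposin, the precursor of the saposins that present sphingolipids to their hydrolases, and was the highest of this role. It had 510, 724, 587 and 408 FPKM in the controls against 434, 1273 and 563 FPKM in the Med23 CKO mice, for a log2 fold change of 0.31 (SE 0.39). Lipa, the acid lipase that frees cholesterol from its esters, had 21.6, 42.8, 39.7 and 12.1 FPKM in the controls against 13.6, 113 and 43.5 FPKM in the Med23 CKO mice, for a log2 fold change of 0.64 (SE 0.72). Lipa too was highest in KO_214 and lowest in WT_220 and KO_117, with a 9.33-fold range over the libraries, and KO_218 lay above every control. Npc1, which carries cholesterol out of the lysosome across its membrane, had 61.4, 101, 58.1 and 35.6 FPKM in the controls against 28.5, 104 and 58.8 FPKM in the Med23 CKO mice, for a log2 fold change of -0.10 (SE 0.48). For Npc1, WT_116 and KO_214 were nearly equal, at a ratio of 1.03. The soluble partner of NPC1, Npc2, and the enzymes Ppt1, Asah1 and Smpd1 had control means from 33.8 to 71.9 FPKM and log2 fold changes from 0.01 to 0.35. Asah1, with the lowest p of the 40, had 65.6, 76.3, 91.0 and 54.9 FPKM in the controls against 67.6, 109 and 101 FPKM in the Med23 CKO mice, so that KO_117 lay inside the range of the controls and the other Med23 CKO libraries above it.

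The membrane proteins line the lysosome and had the highest median level by role, 173 FPKM over all libraries, with a median log2 fold change of 0.11. Cd63, a tetraspanin of late endosomes and lysosomes, had 451, 860, 777 and 311 FPKM in the controls against 282, 1118 and 617 FPKM in the Med23 CKO mice, for a log2 fold change of 0.07 (SE 0.53). Lamp2, needed for the fusion of autophagosomes with lysosomes, had 91.5, 228, 158 and 45.2 FPKM in the controls against 46.7, 272 and 192 FPKM in the Med23 CKO mice, for a log2 fold change of 0.28 (SE 0.73). In Lamp2 the controls alone spread 5.05-fold, while KO_214 was 1.19-fold above the next library. Lamp1, Scarb2, Laptm4a and Mcoln1 had control means from 23.4 to 235 FPKM and log2 fold changes from 0.01 to 0.26.

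The proton pump subunits, which acidify the lumen, had log2 fold changes from -0.12 to 0.34, with a median of 0.12. Atp6v1a, the catalytic subunit of the cytosolic sector, had 72.9, 105, 94.5 and 53.6 FPKM in the controls against 67.1, 141 and 105 FPKM in the Med23 CKO mice, for a log2 fold change of 0.34 (SE 0.32). Its partner Atp6v1b2 had 84.4, 144, 109 and 72.4 FPKM in the controls against 65.6, 171 and 107 FPKM in the Med23 CKO mice, for a log2 fold change of 0.10 (SE 0.36). Both genes kept the order WT_116, WT_213, WT_215, WT_220 among the controls. Atp6v0d1, of the membrane sector, had 95.4, 105, 84.6 and 90.5 FPKM in the controls against 74.0, 116.8 and 73.1 FPKM in the Med23 CKO mice, for a log2 fold change of -0.12 (SE 0.21). Like Gaa, it was below every control in KO_117 and KO_218 and above them in KO_214. Atp6v1h and Atp6ap1 had log2 fold changes of 0.12 and 0.22.

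No gene of the other lysosome and autophagy lists passed the test either. Of 30 other lysosomal enzymes, 28 were tested and had a median log2 fold change of 0.23, with 23 above 0. The median was 0.01 for 23 other lysosomal membrane proteins and 0.12 for 15 other pump subunits. It was 0.05 for 26 genes of sorting and delivery to lysosomes, 0.00 for 19 genes of nutrient sensing at lysosomes and -0.02 for 30 autophagy genes. In each of these lists 0 genes fell under an unadjusted p of 0.05 in limma's test, higher or lower. KO_214 was the highest library for 24 of the 28 enzymes, 16 of the 23 membrane proteins, 12 of the 15 pump subunits, 16 of the 26 sorting genes, 8 of the 19 nutrient-sensing genes and 18 of the 30 autophagy genes. The share was thus largest for the enzymes. Wipi1, an autophagy gene picked after its values were seen, was the 1 gene of these lists whose groups did not overlap, where 0.784% of all genes lay above and 1.53% below, so that this count is not a result about the lists. It had 10.1, 15.1, 15.3 and 12.1 FPKM in the controls against 15.3, 30.2 and 18.5 FPKM in the Med23 CKO mice, for a log2 fold change of 0.62 (SE 0.27, exact permutation p = 0.0286, which is the lowest p possible with 7 libraries).

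Most markers of microglia, endothelial cells, fibroblasts and mural cells were highest in KO_214, as the lysosome genes were. Of 8 neuron markers and 8 oligodendrocyte lineage markers, 0 were highest in KO_214. In bulk RNA, fewer cells of a type and less RNA per cell cannot be told apart. The summed FPKM of 14 microglia markers lay between 30.3 and 207 in control and was 33.3, 877 and 142 in KO_117, KO_214 and KO_218, and no marker of this list was at 0 in any library. Of the 13 that were tested, 12 were highest in KO_214, 13 had a log2 fold change above 0, and 0 had an unadjusted p under 0.05. Tyrobp, a signalling adaptor of myeloid cells, had 39.0, 77.3, 110 and 14.3 FPKM in the controls against 16.0, 492 and 79.7 FPKM in the Med23 CKO mice, the order of Ctss. Of the markers most particular to resident microglia, Cx3cr1 did not exceed 0.782 FPKM in any library and had 0.157 FPKM in KO_214, P2ry12 had 1.24 FPKM in KO_214 and 1.60 FPKM in WT_116, and Tmem119 had 4.04 FPKM in KO_214 and at most 0.414 FPKM elsewhere. With the mean of the microglia markers as a covariate, the median log2 fold change of the 40 lysosome genes was -0.10, with 11 above and 29 below 0. Among the 3 tested markers of border macrophages, Pf4 had 1.15 to 1.47 FPKM in the controls against 7.55, 2.14 and 3.86 FPKM in the Med23 CKO mice, for a log2 fold change of 1.18 (limma, unadjusted p = 0.00873, adjusted p = 0.9999), and its highest library was KO_117. The other 2 tested markers of this list were highest in KO_214 and overlapped the controls, with 1.05, 42.8 and 3.44 FPKM in KO_117, KO_214 and KO_218 for Ms4a7 (unadjusted p = 0.365 from limma) and 0.153, 6.25 and 0.738 FPKM for Mrc1 (unadjusted p = 0.449).

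All 7 endothelial markers and all 8 markers of fibroblasts and mural cells were highest in KO_214 too, with means of 3.51 and 4.71 on the log2(FPKM + 1) scale there, beside at most 2.74 and 2.26 in control. Genes of proliferation ran the other way: their mean was 6.10, 4.20, 5.02 and 6.25 in control and 6.599, 3.12 and 5.09 in Med23 CKO, and 14 of the 15 were highest in KO_117. The 12 markers of neural stem and progenitor cells had a mean of 6.05, 4.85, 5.49 and 6.09 in control and 6.12, 4.78 and 5.07 in Med23 CKO. The libraries with the highest lysosome genes, KO_214 and WT_116, thus had the lowest means of both lists, and WT_220 and KO_117 the highest. The part of other cell types, and that of proliferation, in the level of the lysosome genes was not tested. The microglia covariate cannot separate it from the weight of KO_214. The tested microglia markers had a mean log2(FPKM + 1) of 4.68 there, beside 2.97 in WT_213, the next highest library.

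**Figure D4:**
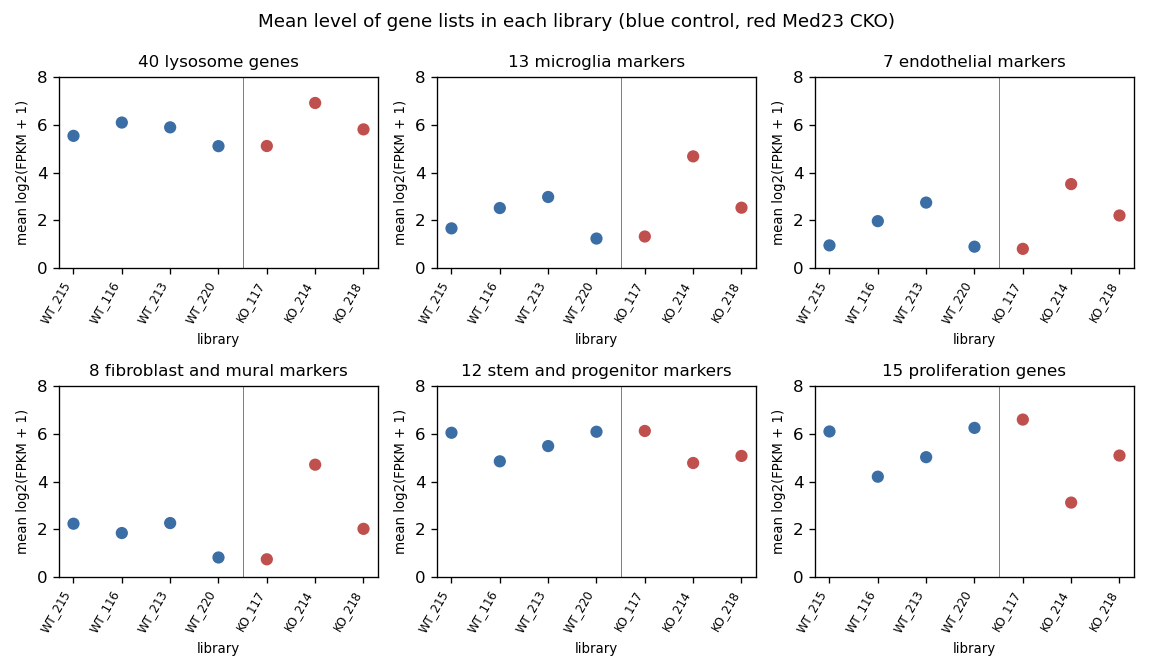
Mean log2(FPKM + 1) of 6 gene lists (panels) in each library, with blue points for control and red for Med23 CKO. The lysosome genes reach 6.92 in KO_214, where the microglia, endothelial, and fibroblast and mural markers are also highest and the stem cell and proliferation lists lowest.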

How the data were processed

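RNA of primary neurospheres was measured in 4 control and 3 Med23 CKO libraries, grouped by sample title. The authors removed adapters, aligned reads to mm10 with Tophat and deposited FPKM per gene from Cuffdiff. The annotation they used is not given in the sources used here. The columns of the table with group means, fold changes and test results of the authors were not used, and 0 columns lacked a group. The library kit did not mark strand, so reads in exons shared with another gene cannot be told apart: in GENCODE M21, 12 of the 40 genes share exon bases, and over 10% for Ctsa (17.4%), Ctsb (12.8%), Ctsd (34.4%), Ctsl (26.8%) and Hexa (12.8%).

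From the deposited FPKM, log2(FPKM + 1) (pseudocount 1) was taken for 14151 genes whose mean reached 0.5 FPKM, and fitted with limma 3.58.1 in R 4.3.3 (lmFit, eBayes with trend, two-sided, Benjamini-Hochberg over all genes tested, threshold 0.05). The script was tested on simulated data. Exact permutation p-values (two-sided) cover the 35 ways to divide 7 libraries into 4 and 3, so the smallest is 0.0286. No list was tested as a whole. Low values fell on no steps of whole fragments (the fullest bin held 3.72% of ratios over 21 pairs of libraries), 0 pairs of libraries were identical, and the number of libraries limits the precision.

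The 40 genes and all lists were chosen with earlier results of these data known. Values in every library were printed for genes with an unadjusted p under 0.05 or groups that do not overlap, the highest expressed and the largest positive and negative fold change in each role, genes whose highest library exceeds 4 times the median of the 7, and Tfeb, Tfe3 and Grn. Asah1, Mcoln1, Naglu, Lamp1, Glb1, Ctsc and Ctsh, and the cystatins and the microglia and progenitor markers named, were singled out with their values known. Coordinates and promoter windows are from RefSeq on GRCm38.p6, the build of mm10. Ctsb, Ctsh, Npc1, Asah1, Atp6v1b2 and Atp6v1h had no window used here. Alternatives were a pseudocount of 0.1, no filter or a mean of at least 1 FPKM, quantile normalization, centring on library medians, limma without trend, with robust empirical Bayes (statmod 1.5.0) or with array weights, the leading digit of the mouse number as covariate or the mice numbered from 2 alone, the microglia marker mean as a covariate, and each library left out. Figures were drawn in Python 3.11.15 with matplotlib 3.10.9.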

Additional observations from a re-analysis of the deposited data

How the results depend on the processing

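At an adjusted p under 0.05 from limma, 0 of the 40 genes were called under every alternative run. The median log2 fold change of 0.25 kept its sign in the alternatives other than the microglia covariate, where it was -0.10, and the removal of libraries, where it ran from -0.18 (without KO_214) to 0.54 (without KO_117). Removal of 1 library gave from 0 to 3 genes higher at an unadjusted p under 0.05, from 0 to 4 genes above all controls and from 0 to 3 below them. In the mice numbered from 2, 9 genes were higher at an unadjusted p under 0.05 (3.14% of all genes) and 11 lay above all controls (11.7% of all genes). There 0 were lower at that level (9.71% of all genes) and 0 lay below all controls (23.9% of all genes). Array weights, whose estimate had not reached its convergence tolerance, gave a median of 0.12 and 193 higher and 887 lower genes over the whole table, beside 71 and 141.

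Of the 40 genes, the sign turned for 25 with the microglia covariate, 7 with array weights, 5 in the mice numbered from 2, 1 with centring on library medians, 31 without KO_214, 10 without WT_220 and from 1 to 4 without any other library, and for 0 in the remaining alternatives. Among those, a changed filter, limma without trend and robust empirical Bayes leave the fold changes of the 40 as they are. There neither a sign nor the median could turn. Among the 21 genes printed in full by rule, the sign turned with the microglia covariate for Ctsd (-0.26), Ctss (-0.25), Hexa (-0.27), Psap (-0.013), Lipa (-0.011), Cd63 (-0.40), Lamp2 (-0.31), Atp6v1b2 (-0.20), Ctsb (-0.29), Ctsk (-0.58), Ctsl (-0.046) and Tfeb (-0.085). Among these 21 it turned in the mice numbered from 2 for Ctsf (0.43), Gaa (0.12), Npc1 (0.63), Atp6v0d1 (0.038) and Tfe3 (-0.061), with array weights for Hexa (-0.0045) and Tfe3 (-0.22), and with centring on library medians for Ctsf (0.0022). When single libraries were removed, the lowest and highest log2 fold changes of those of the 21 that turned were Cd63 (-0.41 to 0.58), Ctsf (-0.37 to 0.27), Npc1 (-0.54 to 0.38), Tfe3 (-0.10 to 0.29), Hexa (-0.42 to 0.52), Lamp2 (-0.22 to 1.04), Atp6v1b2 (-0.24 to 0.44), Ctsk (-0.78 to 1.89), Gaa (-0.33 to 0.083), Ctsd (-0.47 to 1.32), Ctss (-0.41 to 2.31), Gusb (-0.048 to 0.76), Psap (-0.14 to 0.63), Lipa (-0.080 to 1.40), Grn (-0.15 to 0.95), Ctsb (-0.44 to 1.60), Ctsl (-0.18 to 1.72), Ctsz (-0.21 to 1.13) and Tfeb (-0.21 to 0.42). For the 21 genes, sign and side of an unadjusted p of 0.05 stayed as they were 225 times under these alternatives and 115 times when a library was removed, and a value newly passed 0.05 in its own direction 7 times and 1 time. The count of 225 includes the exact permutation test of each gene, which keeps the fold change of the main fit. The cause of these turns was not tested. No paired analysis was possible, because the controls were littermates but the labels do not give the litter of each mouse. Depth is unknown, and 3 libraries against 4 limit what could be detected.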

Other observations

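Cystatins, the inhibitors that hold cysteine cathepsins in check, were measured in the same libraries. Cst3, the cystatin secreted by many brain cells, had 650, 771, 782 and 411 FPKM in the controls against 490, 3108 and 1370 FPKM in the Med23 CKO mice, with the libraries in the order used for each gene, for a log2 fold change of 1.01 (SE 0.59). Cstb, the cytosolic inhibitor of cathepsins B, L and S, had 84.0, 140, 123 and 57.2 FPKM in the controls against 51.9, 324 and 119 FPKM in the Med23 CKO mice, for a log2 fold change of 0.40 (SE 0.60). Both inhibitors were thus highest in KO_214, the library with the highest cathepsins, and lowest in WT_220 or KO_117. The list held 4 cystatins. Cst6 had a log2 fold change of 0.006 (SE 0.40), with 2.66 FPKM in KO_214 beside 2.65 FPKM in WT_213. Cst7 was below the filter and lowest in KO_218. Of the 3 cystatins tested, 0 passed limma's test at an unadjusted p under 0.05.

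The mean log2(FPKM + 1) of 7 astrocyte markers was 4.45, 4.69, 5.12 and 3.84 in the controls and 3.53, 5.74 and 5.22 in Med23 CKO, so this mean too was highest in KO_214 and lowest in KO_117. Of the 7 markers, 4 were highest in KO_214, and 1 each in WT_116, WT_220 and KO_218. The 8 markers of the oligodendrocyte lineage had a mean of 4.17 in KO_117, beside 5.42 to 6.65 in control, 6.603 in KO_214 and 6.09 in KO_218. The 8 neuron markers had means between 2.44 and 3.32 in control and between 2.63 and 2.96 in Med23 CKO, so the groups overlapped.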
